A study of Oryza sativa with 6 samples.

Results

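OsCPS4 (BGIOSGA015502), OsKSL4 (BGIOSGA015980) and CYP99A3 (BGIOSGA015981) are 3 rice genes of momilactone synthesis, taken by identifier from a table of 42031 features. The table names the first 2 CPS4 and KSL4 and gives the third no name, only a description as an oxidase of pimaradiene, which is the reaction of CYP99A3. RNA was sequenced from roots of wild-type rice (Oryza sativa) kept in a greenhouse on a cycle of 12 h light at 30 °C and 12 h dark at 28 °C. The Fo+Cd group received 0.5% Fo10 with 10 µM cadmium (3 libraries), and the Cd group received 10 µM cadmium without Fo10 (3 libraries). Cadmium is shared by both groups, and no cadmium-free group was analysed here. The labels give neither the nature of Fo10, the cultivar, the age of the plants nor the length of treatment. They also do not say whether replicates came from separate plants. The p-values below therefore reflect how far these particular libraries differ among themselves, and that spread may be technical.

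Momilactones are labdane-related diterpenoids of rice, made as phytoalexins after attack and also released from roots, where they inhibit the growth of neighbouring plants. Their synthesis starts in plastids from geranylgeranyl diphosphate, the common precursor of diterpenes, gibberellins and carotenoids. OsCPS4, a class II diterpene cyclase, turns it into syn-copalyl diphosphate. OsKSL4, a class I diterpene synthase, then forms syn-pimaradiene, and CYP99A3, a cytochrome P450, oxidises that hydrocarbon. The 3 genes belong to a gene cluster on chromosome 4. In the RefSeq annotation of a Japonica assembly (ASM3414082v1), CYP99A3 is the protein-coding gene next to OsCPS4, OsMAS and OsKSL4 follow on the same side, and CYP99A2 comes after OsKSL4. That assembly is not the source of the deposited identifiers and was used for names and neighbours alone.

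CYP99A3 and OsCPS4 were higher in Fo+Cd roots, by 16.7-fold and 11.4-fold in mean TPM. OsKSL4 was 7.27-fold higher in mean TPM but did not pass the test. These folds depend on Cd replicate 3: against the mean of the other 2 Cd libraries they were 20.2 for CYP99A3, 17.2 for OsCPS4 and 35.5 for OsKSL4, so the order of the genes by fold also depends on it. TPM scales transcripts to a fixed total per library and corrects for gene length, so levels of different genes can be set side by side. Of all 21166 features tested with limma, 2.45% were called at an adjusted p under 0.05 and 1.72% were called higher in Fo+Cd, beside 2 of these 3 genes. In all 3 genes every Fo+Cd library lay above every Cd library, as in 11.3% of the features tested. In RNA from whole roots, more cells that express a gene and more RNA per cell cannot be told apart.

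OsCPS4 stood at 125, 148 and 131 TPM in Fo+Cd replicates 1, 2 and 3, against 7.93, 7.79 and 19.7 TPM in Cd replicates 1, 2 and 3. The Fo+Cd libraries were close together, while Cd replicate 3 was 2.51 times the mean of the other Cd libraries. The lowest Fo+Cd library was still 6.36 times the highest Cd library. Group means were 135 ± 11.7 TPM in Fo+Cd and 11.8 ± 6.85 TPM in Cd (SD, n = 3 each). The log2 fold change, computed on log2(TPM + 1), was 3.53 (SE 0.337, 95% interval 2.71 to 4.34, limma adjusted p = 0.00504). This scale understates the change of genes near 1 TPM.

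CYP99A3 was the most abundant of the 3, at 243, 272 and 243 TPM in Fo+Cd against 13.2, 11.9 and 20.4 TPM in Cd, in the order of replicates 1, 2 and 3. It varied least of the 3 within groups, with a coefficient of variation of 6.51% in Fo+Cd and 30.0% in Cd. Cd replicate 3 was again the highest Cd library, 1.62 times the mean of the other 2, and the lowest Fo+Cd library was 12.0 times as high as it. Means were 253 ± 16.5 TPM in Fo+Cd and 15.1 ± 4.55 TPM in Cd (SD, n = 3 each). The log2 fold change was 4.01 (SE 0.186, 95% interval 3.57 to 4.45, limma adjusted p = 0.000155), the 21st largest rise among the features tested, where OsCPS4 held place 33.

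OsKSL4 was the least abundant, at 7.09, 10.9 and 7.58 TPM in Fo+Cd against 0.45, 0.03 and 3.03 TPM in Cd. The groups did not overlap, but the lowest Fo+Cd library was 2.34 times Cd replicate 3, a smaller gap than for either other gene. The Cd libraries spanned 101-fold. Means were 8.51 ± 2.05 TPM in Fo+Cd and 1.17 ± 1.62 TPM in Cd (SD, n = 3 each). The log2 fold change of 2.37 did not pass (SE 0.496, 95% interval 1.18 to 3.55, unadjusted p = 0.00245, limma adjusted p = 0.0729). OsKSL4 reached 1 TPM in a single Cd library, so it met the filter on low values (at least 1 TPM in at least 3 libraries) through Fo+Cd.

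**Figure D1:**
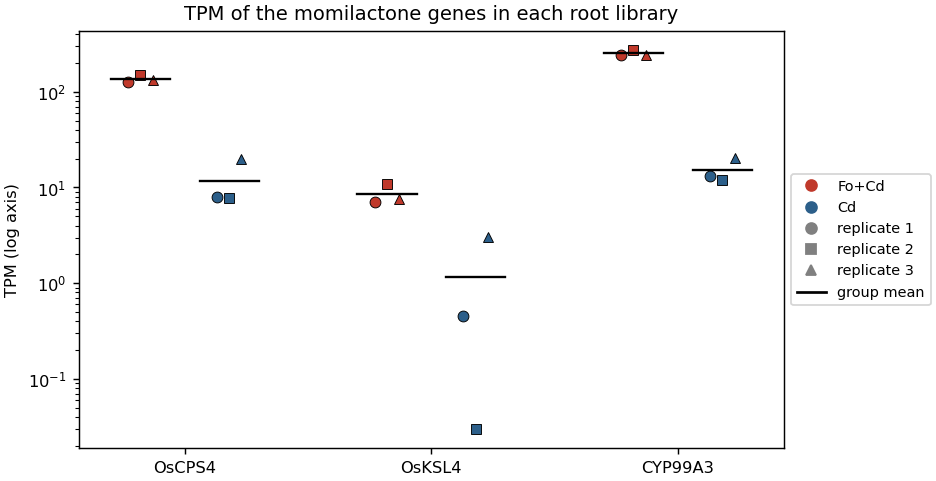
TPM (log axis) of OsCPS4, OsKSL4 and CYP99A3 in each of the 3 Fo+Cd (red) and 3 Cd (blue) libraries, with marker shape for the replicate and a line at the group mean. Fo+Cd lies above Cd for each gene, Cd replicate 3 is the highest Cd library for each, and OsKSL4 is the lowest gene in every library.

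The order of levels was CYP99A3, OsCPS4, OsKSL4 in each of the 6 libraries. In Fo+Cd the mean of CYP99A3 lay above 97.2% of the features tested, that of OsCPS4 above 93.9% and that of OsKSL4 above 37.1%. In Cd the same genes lay above 51.8%, 45.2% and 2.90%. CYP99A3 and OsCPS4 were apart by far more than their spread in Fo+Cd, whereas in Cd their means differed by less than the SD of either gene. Summed, the 3 genes made up 376, 431 and 382 TPM in Fo+Cd replicates 1 to 3, against 21.6, 19.7 and 43.1 TPM in Cd replicates 1 to 3. CYP99A3 held 63.1% to 64.8% of that sum in Fo+Cd and 47.2% to 61.1% in Cd. OsCPS4 held 33.4% to 34.4% in Fo+Cd and 36.8% to 45.8% in Cd, and OsKSL4 held 1.89% to 2.52% in Fo+Cd and 0.152% to 7.03% in Cd.

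Within groups the 3 genes deviated in the same direction. All 3 were highest in Fo+Cd replicate 2 and in Cd replicate 3, and lowest in Fo+Cd replicate 1 and in Cd replicate 2. In Cd replicate 3, OsCPS4, OsKSL4 and CYP99A3 stood 0.82, 1.15 and 0.44 log2(TPM + 1) units above the Cd mean. In Fo+Cd replicate 2 they stood 0.14, 0.34 and 0.11 units above the Fo+Cd mean. OsKSL4 deviated furthest from the group mean in every library but Cd replicate 1, where OsCPS4 did, and CYP99A3 deviated least in every library but Fo+Cd replicate 3, where OsCPS4 did. With 3 libraries in each of 2 separate groups, a correlation between the genes cannot be tested and none was computed. Across all features tested, 30.4% were highest among Cd libraries in Cd replicate 3, and 37.0% of the 365 called higher were. Fo+Cd replicate 2 was the highest Fo+Cd library for 34.7% of all features tested and for 50.4% of those called higher.

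**Figure D2:**
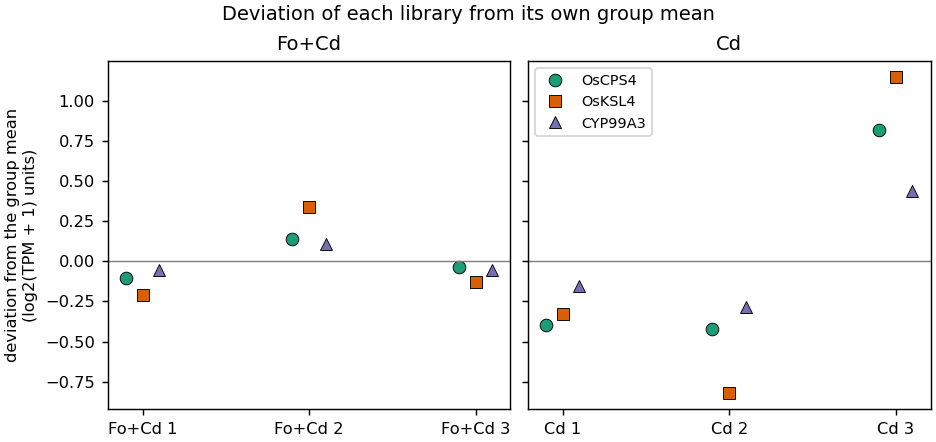
Deviation of each library from its own group mean in log2(TPM + 1) units (vertical axis) for the 3 genes, with Fo+Cd libraries on the left and Cd libraries on the right. The 3 genes lie on the same side of 0 in each library, and each gene deviates furthest in Cd replicate 3, by 0.82 for OsCPS4, 1.15 for OsKSL4 and 0.44 for CYP99A3.

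Leaving out Cd replicate 3 raised each of the 3 log2 fold changes and brought OsKSL4 past the threshold. Without it the log2 fold change was 3.94 for OsCPS4 (limma adjusted p = 3.51e-05), 4.23 for CYP99A3 (limma adjusted p = 2.29e-05) and 2.94 for OsKSL4 (limma adjusted p = 0.00386). OsCPS4 and CYP99A3 were called under each of 14 processing alternatives, with log2 fold changes of 3.32 to 3.94 and 3.86 to 4.23. The highest adjusted p of OsCPS4 was 0.0431, without Fo+Cd replicate 2. OsKSL4 stayed short of the threshold under the other 13 alternatives (limma adjusted p 0.0591 to 0.228). Its log2 fold change depended on the constant added before the logarithm, being 3.80 with 0.1 TPM and 2.87 with 0.5 TPM in place of 1 TPM.

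**Figure D3:**
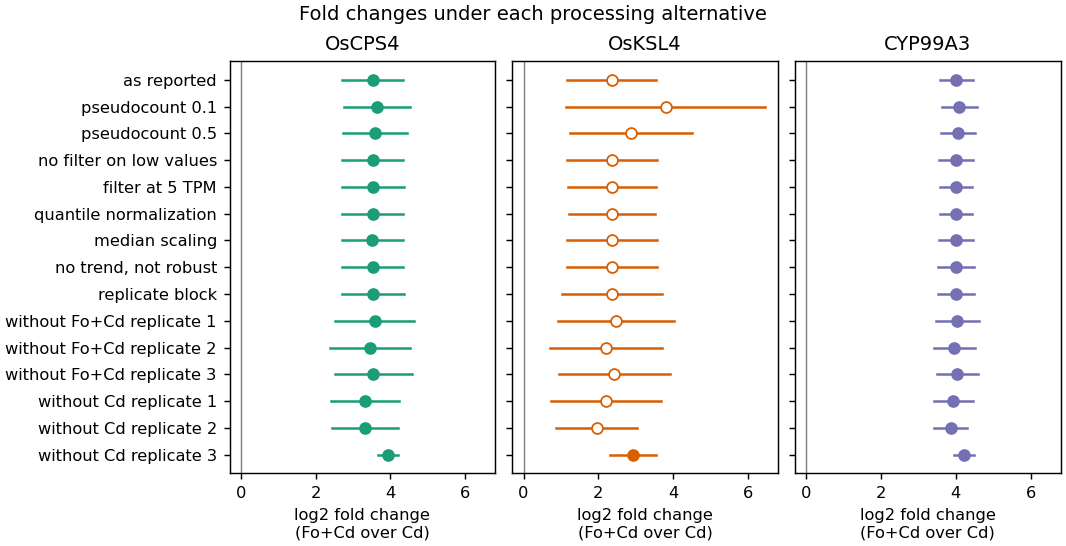
Log2 fold change (Fo+Cd over Cd, horizontal axis) of each gene with its 95% interval as reported and under each processing alternative. Filled points passed an adjusted p of 0.05, which OsKSL4 did only without Cd replicate 3, at 2.94.

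Ratios between the genes asked whether they differed in how far they moved. CYP99A3 was 1.94, 1.84 and 1.85 times OsCPS4 in TPM in Fo+Cd replicates 1 to 3, against 1.66, 1.53 and 1.03 times in Cd replicates 1 to 3. The log2 ratio of (TPM + 1) was 0.90 ± 0.04 in Fo+Cd and 0.42 ± 0.33 in Cd (SD, n = 3 each), a difference of 0.48 (exact two-sided permutation p = 0.1). That is the smallest p this design allows, and it was 0.1 for each of the 3 pairs of genes, also after adjustment over them. Without Cd replicate 3 the difference was 0.29. OsCPS4 was 17.7, 13.6 and 17.3 times OsKSL4 in Fo+Cd, against 17.6, 260 and 6.51 times in Cd, where the middle value rests on an OsKSL4 level of 0.03 TPM. In TPM those ratios overlap between groups. The log2 ratio of (TPM + 1) was 3.85 ± 0.18 in Fo+Cd and 2.69 ± 0.37 in Cd, and the difference of 1.16 turned to -0.16 with a constant of 0.1 TPM (exact permutation p = 0.9). For CYP99A3 over OsKSL4 the difference was 1.64, and 0.29 with a constant of 0.1 TPM (exact permutation p = 0.7). The direction of change of OsKSL4 relative to OsCPS4 is therefore not fixed by these values.

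**Figure D4:**
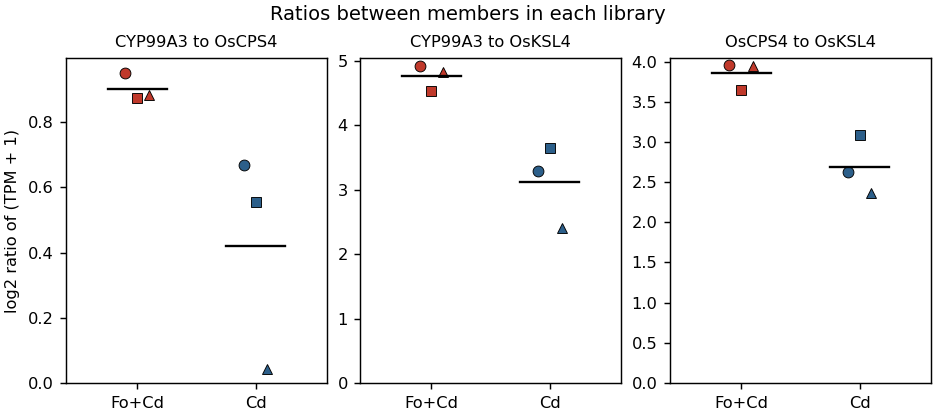
Log2 ratios of (TPM + 1) between pairs of the 3 genes (vertical axis) in each library, Fo+Cd in red and Cd in blue, with a line at the group mean and marker shapes for the replicates as in the plot of levels. Each ratio is higher in the Fo+Cd libraries on this scale, with mean differences of 0.48, 1.64 and 1.16 from left to right. With a constant of 0.1 TPM the middle one falls to 0.29 and the last turns to -0.16.

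Upstream of OsCPS4, genes that supply geranylgeranyl diphosphate were read from a list matched by name and description, covering the plastid methylerythritol phosphate pathway and geranylgeranyl diphosphate synthases. Of 11 tested, 7 were called higher, beside 1.72% of all features, and 4 were not called. By annotation, 4 of the 4 whose description cites no database were called, beside 91.2% of all tested genes so described. Of the 7 whose description cites one, 3 were called, beside 2.19% of all tested genes so described. The count of 7 of 11 is therefore given as a description only. The median log2 fold change of the 11 was 1.65, against 0.0025 for all features tested. DXS (BGIOSGA025304), for the entry enzyme of the plastid pathway, stood at 116, 134 and 112 TPM in Fo+Cd against 2.0, 2.18 and 6.18 TPM in Cd. GGPPS1 (BGIOSGA024015), whose enzyme makes the substrate of OsCPS4, stood at 140, 158 and 139 TPM in Fo+Cd against 29.5, 24.2 and 35.9 TPM in Cd. Both were highest among Cd libraries in Cd replicate 3. The other 5 called genes were DXR, IspF, HDR, BGIOSGA009867 and BGIOSGA006093, which encode later enzymes of the plastid pathway, with log2 fold changes of 1.25 to 1.83. BGIOSGA009867 is described as 4-hydroxy-3-methylbut-2-enyl diphosphate reductase, the enzyme of HDR, and is numbered next to HDR (BGIOSGA009868). The 7 called may therefore count 1 enzyme more than once. The 4 not called were 2 further genes described as deoxyxylulose phosphate synthase or like it, BGIOSGA004947 of the same pathway and a small subunit of geranylgeranyl diphosphate synthase (-0.15 to 0.73).

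The diterpenoid phytoalexin list held 9 further genes. Other names sought, among them OsKSL5 to OsKSL8, OsKSL10, OsKSL11, CYP76M14 and CYP701A8, matched no row by name. The list is therefore not the whole pathway. Of these, 8 reached 1 TPM in fewer than 3 Cd libraries and, like OsKSL4, met the filter on low values through Fo+Cd, where they are high. That 9 of 9 were called higher, beside 1.72% of all features tested, is therefore given as a description only. Among Cd libraries, 7 of the 9 were highest in Cd replicate 3. The gene described as momilactone A synthase (BGIOSGA026333), a dehydrogenase of the last step of that route, is 1 of them. It stood at 10.2, 14.0 and 14.5 TPM in Fo+Cd against 3.89, 6.33 and 5.44 TPM in Cd (log2 fold change 1.17, SE 0.198, limma adjusted p = 0.0306). Its highest Cd library was replicate 2, not replicate 3. The call was lost without Fo+Cd replicate 2 or 3, without Cd replicate 1 or 3, and without a filter on low values (limma adjusted p 0.0579 to 0.131). Its identifier is not numbered near those of the 3 genes, and whether it is the clustered copy cannot be told from the table.

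Among the P450 genes of the list, CYP76M8 (BGIOSGA008465), whose enzyme acts in momilactone and oryzalexin synthesis, stood at 13.4, 13.3 and 13.7 TPM in Fo+Cd against 0.14, 0.28 and 1.33 TPM in Cd. CYP76M5, CYP76M6, CYP71Z2 and cyp71Z4 had log2 fold changes of 2.90 to 3.79. BGIOSGA006215 and BGIOSGA001409, described as hydroxylases of ent-cassadiene, the phytocassane precursor, had 3.21 and 2.14. These P450 genes belong to families of closely related copies, as do CYP99A3 and CYP99A2, so reads may have been divided between copies and single values are uncertain. CYP99A2 was sought but matched no row by name, so it is not analysed here. The list also holds OsCPS2 (BGIOSGA008469), the cyclase that makes ent-copalyl diphosphate from the same substrate as OsCPS4. OsCPS2 stood at 46.0, 39.4 and 42.0 TPM in Fo+Cd against 0.02, 0 and 1.90 TPM in Cd, so OsCPS4 was the more abundant cyclase in each of the 6 libraries.

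**Figure D5:**
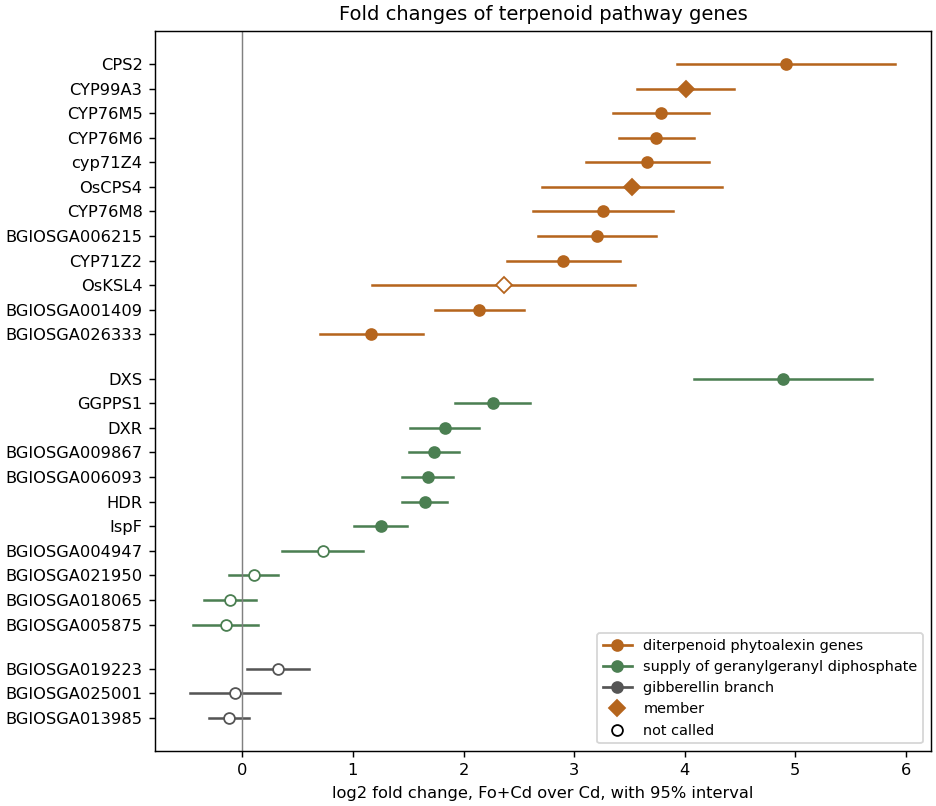
Log2 fold change (Fo+Cd over Cd, horizontal axis) with its 95% interval for tested genes of 3 lists: diterpenoid phytoalexin genes, with the 3 genes of interest as diamonds, supply of geranylgeranyl diphosphate, and the gibberellin branch. Only gibberellin oxidase genes were matched for the last list. Filled symbols were called. OsKSL4, at 2.37, is the 1 open symbol among the 12 phytoalexin genes that were matched, which are not the whole pathway. The 3 gibberellin genes lie between -0.12 and 0.32.

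Gibberellins branch from the same precursor through ent-copalyl diphosphate. The earlier genes of this branch that were sought, OsCPS1, OsKS1, OsKO and OsKAO, matched no row, so the branch point itself was not examined. Of 3 gibberellin oxidase genes matched, limma called 0, beside 2.45% of all features tested. By limma 1 of the 3 had an unadjusted p under 0.05, as did 15.4% of all features tested. GA20 oxidase 1 (BGIOSGA013985), which acts in gibberellin synthesis, stood at 38.2, 37.8 and 37.5 TPM in Fo+Cd against 39.9, 43.5 and 40.4 TPM in Cd (log2 fold change -0.12, 95% interval -0.30 to 0.06). Its Fo+Cd libraries lay just below the lowest Cd library. The other 2 belong to the oxidases that inactivate gibberellins. BGIOSGA019223 stood at 10.7, 13.3 and 13.3 TPM in Fo+Cd against 9.46, 10.1 and 9.51 TPM in Cd (log2 fold change 0.32, 95% interval 0.04 to 0.61), with groups that did not overlap. BGIOSGA025001 had a log2 fold change of -0.07 (95% interval -0.47 to 0.34).

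Features numbered next to the 3 genes were compared with them. Of 40 features numbered within 10 of one of the 3 identifiers, 18 were at 0 in all libraries and 14 were tested. By limma 0 of the 14 were called, beside 2.45% of all features tested, and 3 had an unadjusted p under 0.05, beside 15.4%. In 3 of the 14 every Fo+Cd library lay above every Cd library, beside 11.3% of all features tested. Counts this small do not set these features apart from others. Their median log2 fold change was 0.11. BGIOSGA015982, described as actin-related protein 9, carries the number after CYP99A3, and in the RefSeq order ARP9 is the protein-coding gene next to OsCPS4. It stood at 18.9, 17.4 and 15.3 TPM in Fo+Cd against 17.1, 15.7 and 15.1 TPM in Cd (log2 fold change 0.10, 95% interval -0.16 to 0.36). ETFB (BGIOSGA015973), an electron transfer flavoprotein subunit that lies beyond the other end of the cluster in the RefSeq order, had a log2 fold change of -0.20 (95% interval -0.50 to 0.10). Values of both overlapped between groups. BGIOSGA015504, numbered 2 after OsCPS4, has no name or description. It stood at 44.5, 54.9 and 45.1 TPM in Fo+Cd against 1.37, 1.02 and 17.7 TPM in Cd. Its groups did not overlap, and Cd replicate 3 was again far above the other Cd libraries. Its log2 fold change of 3.45 did not pass (limma adjusted p = 0.141), but without Cd replicate 3 it was 4.48 (limma adjusted p = 7.19e-05). These 3 neighbours were picked for mention after their values were seen.

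Likeness of pattern was measured as the root mean square difference between profiles of log2(TPM + 1) over the 6 libraries, each profile centred on its own mean, and is given as a description. CYP99A3 was the 11th nearest feature to OsCPS4 of 21165 (0.31 log2 units, against a median of 1.82 over all), and OsKSL4 the 39th (0.63). OsCPS4 was likewise the 11th nearest to CYP99A3, and OsKSL4 the 63rd (0.91). The 5 nearest features with a name or description to CYP99A3 were CYP76M5 (0.13), COMTL2 (0.16), cyp71Z4 (0.21), CYP76M6 (0.23) and BGIOSGA033748 (0.25). Those nearest to OsCPS4 were CYP76M8 (0.19), cyp71Z4 (0.23), a probable galactinol-sucrose galactosyltransferase (BGIOSGA037573, 0.26), CYP76M5 (0.27) and the pathogenesis-related gene OsPR10 (BGIOSGA037569, 0.29). For both genes 3 of these 5 are in the diterpenoid list, matched by name alone, cyp71Z4 through the prefix CYP71Z. For OsKSL4 none of the 5 is: they were the thaumatin-like gene OsPR5 (0.32), the ABC transporter gene ABCG43 (0.36), CYP72A32 (0.36), a cysteine-rich secretory protein gene (BGIOSGA024893, 0.39) and a further P450 gene, BGIOSGA001267 (0.44). A profile near that of these genes is itself higher in Fo+Cd, so the calls of the named features add nothing to the likeness. The diterpenoid genes among the nearest met the filter on low values through Fo+Cd. So did OsPR5, COMTL2, CYP72A32, BGIOSGA033748 and BGIOSGA037573. Features without a name or description were left out. The overlap of the nearest features with the diterpenoid list is therefore a description only. OsPR5 lost its call without Fo+Cd replicate 2 or 3 or Cd replicate 1, with a constant of 0.1 TPM, and with the replicate number as a block (limma adjusted p 0.0710 to 0.106). CYP72A32 lost its call without Fo+Cd replicate 1 (limma adjusted p = 0.0522).

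Several facts of the whole table bear on these values. OsCPS4 and CYP99A3 have descriptions that cite no database, and 206 of 226 tested genes so described were called, against 94 of 4288 whose description cites one, as that of OsKSL4 does. Of the 12 diterpenoid genes 3 have a description with a database source. The share of these genes called may therefore not be independent of how the table was annotated. Libraries held 24954 to 25793 features above 0, and the number of reads behind each TPM is unknown. Root markers were present, with a silicon efflux transporter of root cells (BGIOSGA011605) at 642 to 1120 TPM. The 6 root markers summed to 1131 to 1567 TPM in Fo+Cd and 1007 to 1121 TPM in Cd, sums that this transporter dominates. By limma 0 of the 6 were called, beside 2.45% of all features tested. An unadjusted p under 0.05 was found for 4 of the 6, a larger share than the 15.4% of all features tested. The log2 fold changes of 4 Casparian strip membrane protein genes of the endodermis were -0.46, -0.22, -0.41 and -0.29 (BGIOSGA016544, BGIOSGA017380, BGIOSGA022588 and BGIOSGA027833), that of nicotianamine synthase 2 (BGIOSGA010884) was 1.03, and that of the silicon transporter was 0.33. The 26 shoot markers of photosynthesis summed to 24.2 to 34.5 TPM in Fo+Cd and 24.5 to 26.3 TPM in Cd, and 7 of them were at 0 in all libraries. The part of any difference in cell make-up in the results was not tested.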

How the data were processed

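Messenger RNA from rice roots was made into stranded libraries from total RNA extracted with TRIzol, per the labels' protocols. The authors deposited TPM values for each library. No aligner, counting program or genome build is given in the sources used here. TPM was recognised from the values, which sum to 963281 to 966767 per library. TPM keeps no record of depth, so no counting intervals were computed. The authors' group means were not used. At most 1.23% of values above 0 were identical between any 2 libraries, so none was treated as a duplicate.

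A constant of 1 TPM was added before taking log2. The filter required 1 TPM or more in 3 or more libraries. All 6 libraries entered 1 fit of Fo+Cd over Cd with limma (version 3.58.1, R 4.3.3, trend and robust empirical Bayes, without covariates). Benjamini-Hochberg adjustment covered all 21166 features, with calls under 0.05. The fit was tested on simulated data. Ratios between genes were tested by exact permutation, two-sided (scipy 1.17.1, Python 3.11.15). Alternatives were other constants, filters and scalings, no trend, a replicate block and each library left out.

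The 3 genes and the lists were chosen with earlier results of these data known. Genes named are the 3 members, for each the 5 nearest described features, called genes of the lists (at most 12 a list), and numbering neighbours within 10. Lists were matched by gene name or description. No sequences are shown.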

Additional observations from a re-analysis of the deposited data

How the results depend on the processing

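OsCPS4 and CYP99A3 kept their direction and their call under all 14 alternatives tried, and OsKSL4 kept its direction. With single libraries left out, log2 fold changes ran from 3.32 to 3.94 for OsCPS4, 3.86 to 4.23 for CYP99A3 and 1.95 to 2.94 for OsKSL4, which passed limma's threshold without Cd replicate 3. The number of called features, 518 with all libraries, ran from 189 (without Fo+Cd replicate 3) to 726 (without Cd replicate 2), and from 353 to 509 under the other alternatives. The calls were 70.5% higher in Fo+Cd with all libraries, 50.6% without Cd replicate 2 and 89.2% without Cd replicate 3. The difference in the log2 ratio of OsCPS4 to OsKSL4 turned from 1.16 to -0.16 with a pseudocount of 0.1. OsKSL4 lay at 0.45 and 0.03 TPM in Cd replicates 1 and 2, below the constant of 1 TPM used otherwise, and the cause was not tested further. With single libraries left out the ratio differences ran from 0.29 to 0.60 for CYP99A3 to OsCPS4, 1.29 to 1.91 for CYP99A3 to OsKSL4 and 1.00 to 1.36 for OsCPS4 to OsKSL4. Deviations of same-numbered libraries had correlations of -0.03, 0.08 and 0.07 across features, and those of unlike-numbered libraries ran from -0.12 to 0.07. With 3 libraries a group, whether the numbers pair libraries cannot be told from these values. With the replicate number as a block 353 features were called, and limma's adjusted p was 0.0239 for OsCPS4, 0.00565 for CYP99A3 and 0.145 for OsKSL4. The exact p of each ratio was then 0.25, the smallest that 3 pairs allow. Of 25 other named genes that were called, 22 kept their call under every alternative in which they were tested. They were named for being called, or for profiles near those of the members, in these same data. The count is therefore a description only, and no such share over all called features is given. CYP76M5, CYP76M6, cyp71Z4, BGIOSGA033748 and BGIOSGA001409 missed the filter on low values once any Fo+Cd library was left out. They were therefore not tested in those fits, and BGIOSGA001409 was also not tested with the filter at 5 TPM. The 3 genes that lost a call are given above, and for OsPR5 limma's adjusted p with the block was 0.0732. Depth is unknown, so how far counting error limits OsKSL4 in Cd cannot be stated.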
